A study of Mus musculus with 12 samples.

Results

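CD4 T cells sorted from uninjured mouse kidneys were compared between mice labelled CD4 Keap1 KO (KO control, 3 libraries) and wild-type mice (WT control, 3 libraries). The comparison runs across the 12065 protein-coding genes whose mean over the 12 libraries of the series was at least 1 FPKM (fragments scaled for transcript length and library size), of 52632 genes in the table and 19288 at that level. Both genotypes are on the C57BL6/J background. WT mice were bought and KO mice were bred in house, so genotype and source of the mice cannot be told apart. The labels name neither the Cre driver nor the deleted part of Keap1, and give neither age nor sex of the mice. They do not say whether the control mice had sham surgery. The remaining 6 libraries come from the same 2 genotypes, collected 24 h after ischemia-reperfusion injury (IRI). In IRI the blood supply of both kidneys was clamped for 30 min. These libraries set the genotype difference after IRI beside that without it. They also enter the filter, the scaling and the estimate of spread behind every p-value for the controls. Nothing in the labels ties the 3 libraries of a group to separate mice, and each p-value therefore reflects only how far these libraries vary, which may be technical.

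KEAP1 is an adaptor protein that hands the transcription factor NRF2, encoded by Nfe2l2, to a ubiquitin ligase, so that NRF2 is broken down as it is made. Oxidants and electrophiles modify cysteines of KEAP1 and let NRF2 build up, and loss of KEAP1 does the same without a stress. NRF2 pairs with small MAF proteins on antioxidant response elements and drives genes of quinone reduction, thioredoxin and glutathione recycling, NADPH supply and iron storage. In T cells the pathway is known for restraining inflammatory cytokines and for changing redox metabolism.

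Deposited values were divided by 1 factor per library, from median ratios, and are called rescaled FPKM. A difference is KO control minus WT control on the log2(rescaled FPKM + 1) scale, with its standard error (SE), and understates the change of genes at low levels. The adjusted p comes from limma, a linear model fitted to all 12 libraries, with the Benjamini-Hochberg adjustment over all 19288 genes, and a gene is said to have risen or fallen only where it is under 0.05. Groups do not overlap where all 3 libraries of one lie above all 3 of the other, which is a description and not a test.

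The libraries carried the defining transcripts of CD4 T cells. Summed over 9 markers, among them Cd4, Cd3e and Lat, they reached 1128 to 1268 rescaled FPKM in WT control and 1288 to 1600 in KO control. Between libraries, the rank correlation across the protein-coding genes was 0.924 to 0.970 within a group and 0.903 to 0.968 between groups. KO control 2 lay nearest to WT. It was the KO library closest to the WT values in 55.0% of the genes that were higher without overlap and in 62.9% of those that were lower. In KO control 1 and 3, 931 and 790 of 1467 chemosensory receptor genes, which are not known to act in T cells, were listed at 0, beside 107 to 653 in the other control libraries. KO control 1 also held the most small nucleolar RNA, 601132 FPKM in sum, beside 81398 to 166319 over the 11 others. WT control 3 and WT IRI 3 had the lowest sums of FPKM, 859343 and 739969, and these 2 libraries and KO control 1 are left out together in an alternative below. The labels give 60000000 reads per sample, the same for every library, and the number each library reached cannot be read from FPKM values. In RNA from a sorted population, fewer cells of a type and less RNA per cell cannot be told apart.

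Keap1 (chr9:21229730-21239361, minus strand, GRCm38) read 9.30, 9.35 and 10.7 rescaled FPKM in WT control and 4.95, 5.73 and 6.35 in KO control. All 3 KO libraries were below all 3 WT libraries, but the gene was still well detected in KO control and did not pass the test across all genes (−0.69 ± 0.16, limma adjusted p = 0.265). Fragments from the parts of Keap1 that were left in place count toward its FPKM, and the antisense gene Gm16754 overlaps it, which makes this level a weak check of the genotype labels. Nfe2l2, which is regulated mainly as a protein, read 18.9, 14.9 and 17.5 in WT control and 22.5, 18.9 and 22.7 in KO control. Its groups overlapped and its difference was 0.31 ± 0.23 (limma adjusted p = 0.654). Among the 72 other protein-coding genes within 5 Mb of Keap1, none passed the test, 5 were higher and 6 lower without overlap, and the median difference was −0.05.

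In this comparison 4 protein-coding genes passed the test. Nqo1, Prdx1 and Txnrd1, which are textbook targets of NRF2, rose in KO control, which is 0.0249% of the genes tested. Fgl2, a secreted immunoregulatory protein, was the single protein-coding gene that fell (0.00829%). Over all 19288 genes, 6 rose (0.0311%) and 1 fell (0.00518%). The 3 others that rose were the small nucleolar RNA gene Gm25744, the antisense gene Gm20658 and the processed pseudogene Gm33707. Many more genes lay apart without passing. At an unadjusted p under 0.05, 617 protein-coding genes (5.11%) were higher and 576 (4.77%) lower. The groups did not overlap for 1237 genes (10.3%) that were higher and 815 (6.76%) that were lower in KO control. Over all protein-coding genes tested the median difference was 0.06, or 0.36 with the values as deposited, and 7059 genes were above 0.

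Which genes lay apart depended on their level. At a mean of at least 30 FPKM, 16.7% of 2006 genes were higher and 2.24% lower without overlap. At a mean of 1 to 2 FPKM the split was the other way, with 2.95% of 1865 genes higher and 17.4% lower. The lower side of the low range includes chemosensory receptors, of which 320 were tested, with 93 lower and 1 higher without overlap and a median difference of −0.77. The number of calls rested on KO control 2. Without it, 26 protein-coding genes rose and 137 fell, and of those that fell 91 had a mean under 5 FPKM and 49 were chemosensory receptors. With KO control 1 and the third library of both WT groups left out, Nqo1 and Txnrd1 remained past the test and were joined by Txn1 and, on the lower side, Spry2, while Prdx1 (limma adjusted p = 0.0557) and Fgl2 (limma adjusted p = 0.127) no longer passed. Spry2 is named because of that call. When only the 6 control libraries were fitted, Nqo1 alone among protein-coding genes passed (limma adjusted p = 0.0476). Prdx1 (limma adjusted p = 0.0506), Fgl2 (limma adjusted p = 0.0827) and Txnrd1 (limma adjusted p = 0.233) did not. With the fit and the adjustment limited to protein-coding genes, 9 rose and 4 fell. The same 4 genes were among them, and the others were Cat, Ftl1, Emb, Abcc1, Cd4 and Rgs10 on the higher side and Klrc1, Atp8a2 and Npr2 on the lower side.

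**Figure D1:**
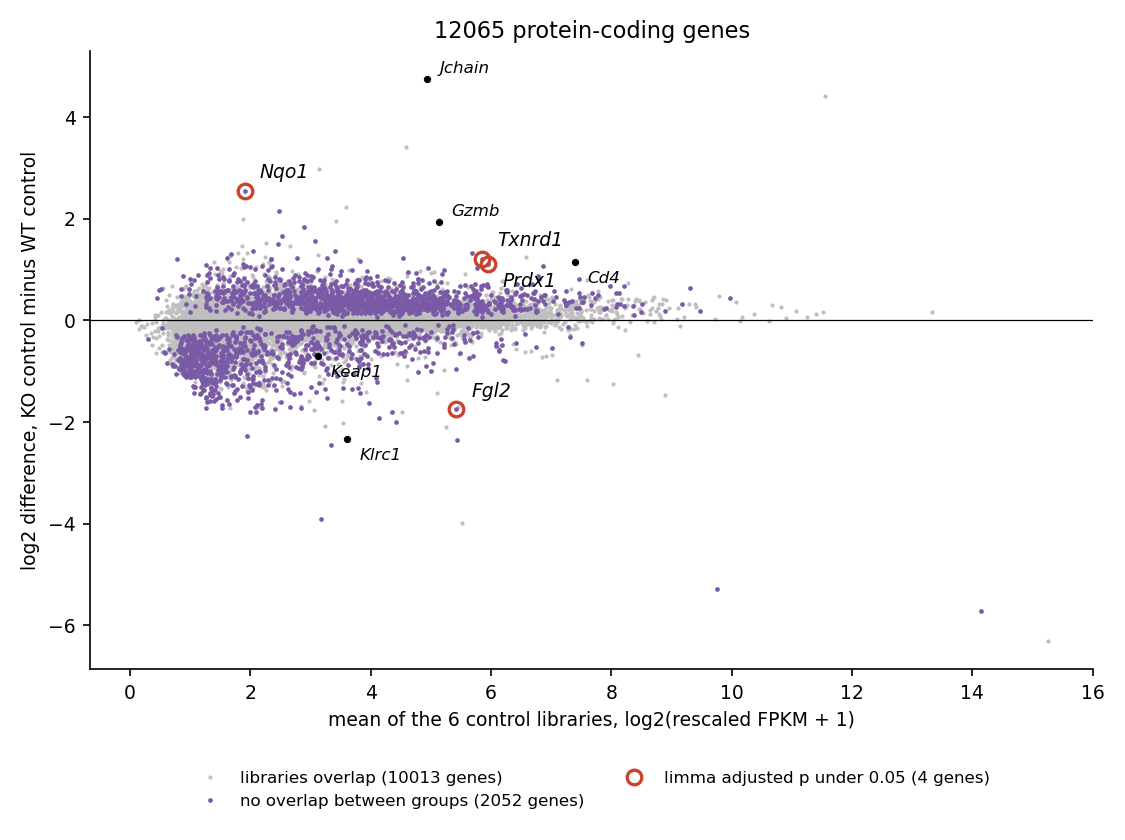
Difference between KO control and WT control (vertical axis, log2) against the mean of the 6 control libraries (horizontal axis, log2(rescaled FPKM + 1)) for 12065 protein-coding genes, 1 point per gene. Genes whose groups did not overlap are purple, the 4 genes past the test are circled, and the cloud of genes that were lower without overlap sits at the left, at low levels.

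NRF2 reads the antioxidant response element, whose core is TGACNNNGC. Promoter windows from RefSeq (GRCm38.p6), 250 bases before to 50 after a gene's start, were searched for it on both strands. Of 32851 windows 12.4% held it, and of the tested protein-coding genes with a window 17.0% did (1610 of 9489). It stood in 18.9% of the genes higher without overlap (184 of 971) and in 16.1% of those lower without overlap (102 of 634). Among 81 genes of 5 lists of NRF2 targets, 69 had a window and 16 of these held it (23.2%). In 19 list members with a window that were higher without overlap, 7 held it (36.8%). The stretches of 4 such members named below are shown because they carry the element before a RefSeq start of the gene. Capitals mark the element as it lies on the strand of the gene. In all 4 it reads TGACNNNGC on the other strand. It is TGACTCAGC in Prdx1 (chr4:116685421-116685519, plus strand) and TGACAAAGC in Txnrd1 (chr10:82859069-82859167, plus strand, at an internal start). It is TGACGGTGC in Gclm (chr3:122245378-122245476, plus strand) and TGACTGAGC in G6pdx (chrX:74428884-74428982, minus strand, at an internal start).
Prdx1: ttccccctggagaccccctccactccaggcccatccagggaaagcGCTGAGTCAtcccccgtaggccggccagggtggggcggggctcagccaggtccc
Txnrd1: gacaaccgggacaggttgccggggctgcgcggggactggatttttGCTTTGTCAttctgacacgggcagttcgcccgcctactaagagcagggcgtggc
Gclm: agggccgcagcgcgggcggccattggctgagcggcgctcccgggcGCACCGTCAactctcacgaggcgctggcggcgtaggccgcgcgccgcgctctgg
G6pdx: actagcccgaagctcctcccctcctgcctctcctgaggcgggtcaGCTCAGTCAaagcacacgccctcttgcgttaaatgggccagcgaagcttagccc
The capitals start 133 bases before the RefSeq start in Prdx1, 92 in Txnrd1, 134 in Gclm and 57 in G6pdx. In Prdx1, Txnrd1 and G6pdx that start lies inside the span of the gene in GENCODE. In Txnrd1 and G6pdx the element lies inside it too. The element of Prdx1 also holds TGACTCA, the palindromic site of AP-1 factors. That site stood in 5.2% of all windows and in 4.42% of the tested protein-coding genes with a window. Of the 69 members of the NRF2 lists with a window, 9 held it (13.0%). Of the 19 that were higher without overlap, 4 did (21.1%). The windows of Nqo1, Cat, Ftl1 and Txn1 did not hold the letters of the core, which says nothing about elements farther away. Fgl2, the protein-coding gene that fell, held the core after its start (TGACCAGGC on the other strand). Srxn1 also held it after the start.

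Nqo1 (chr8:107388225-107403206, minus strand) encodes the quinone reductase that transfers electron pairs from NAD(P)H to quinones. It read 0.108 and 0.175 rescaled FPKM in WT control 1 and 2 and was listed at 0 in WT control 3, against 5.13, 4.85 and 6.34 in KO control. The groups lay far apart, and the lowest KO library was well above the highest WT library. Nqo1 rose by 2.55 ± 0.25 (limma adjusted p = 0.00592). It was the most stable call, past the threshold under all 24 alternatives that gave it a value. In the list of quinone and aldehyde detoxification, 11 of 16 genes were tested. Of these 1 rose and none fell. Without overlap 3 were higher and none lower, beside 10.3% and 6.76% of all protein-coding genes. The median difference of the list was 0.32 beside 0.06 for all protein-coding genes. The others without overlap were the aldo-keto reductases Akr1a1 (0.67 ± 0.17, limma adjusted p = 0.275) and Akr1b3 (0.49 ± 0.15, limma adjusted p = 0.281).

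The thioredoxin system reduces peroxides and protein disulfides. Prdx1 (chr4:116685544-116700822, plus strand), a peroxiredoxin that reduces hydrogen peroxide, read 36.8, 37.7 and 40.0 rescaled FPKM in WT control and 90.2, 78.5 and 83.7 in KO control. The mean was 2.20-fold higher in KO control and the libraries of each group were close together. Prdx1 rose by 1.12 ± 0.12 (limma adjusted p = 0.00704). Txnrd1 (chr10:82833951-82897712, plus strand), the reductase that recycles thioredoxin, read 31.7, 31.4 and 37.8 in WT control and 96.0, 67.8 and 76.2 in KO control. Every KO library was above every WT library, and Txnrd1 rose by 1.21 ± 0.15 (limma adjusted p = 0.0196). That call was lost without WT control 1, WT control 2 or KO control 3 (limma adjusted p = 0.10, 0.113 and 0.0774). In the annotation 3 other genes overlap Txnrd1, among them Eid3, and the strand setting of the authors' counting is not given in the sources used here.

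Other members of this system were higher without passing. Txn1, thioredoxin itself, read 19.5, 21.3 and 49.6 in WT control and 75.6, 60.7 and 75.2 in KO control (1.32 ± 0.30, limma adjusted p = 0.264). WT control 3 stood above the other WT libraries but below all KO libraries. Cat, the catalase of peroxisomes, read 19.0, 17.4 and 21.5 in WT control and 37.9, 39.3 and 44.3 in KO control (1.03 ± 0.15, limma adjusted p = 0.0627). Srxn1, the sulfiredoxin that rescues over-oxidised peroxiredoxins, read 0.880, 0.758 and 0.785 in WT control and 3.33, 4.45 and 2.17 in KO control (1.22 ± 0.58, limma adjusted p = 0.478). Neither gene's groups overlapped. Of the 18 genes of the thioredoxin and peroxide list, 2 rose and none fell. Without overlap 9 were higher and 1 lower, beside 10.3% and 6.76% of all protein-coding genes. The median difference was 0.33.

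Glutathione is made by glutamate-cysteine ligase and recycled by glutathione reductase. Gclc, the catalytic subunit of the ligase, read 7.11, 6.45 and 9.91 in WT control and 18.6, 17.6 and 19.5 in KO control (1.17 ± 0.24, limma adjusted p = 0.220). Gclm, its modifier subunit, differed by 1.02 ± 0.35 (limma adjusted p = 0.309) and Gsr, the reductase, by 0.98 ± 0.22 (limma adjusted p = 0.265). Abcc1, a pump that exports glutathione conjugates, read 14.7, 13.7 and 10.1 in WT control and 39.3, 26.3 and 28.8 in KO control (1.23 ± 0.21, limma adjusted p = 0.141). In these 4 genes all KO libraries were above all WT libraries. Slc7a11, the cystine importer and a known NRF2 target in other cells, ran the other way, with 3.51, 4.33 and 2.59 in WT control and 1.31, 2.78 and 0.853 in KO control (−0.80 ± 0.28, limma adjusted p = 0.323). Its groups overlapped through KO control 2. Of 22 listed glutathione genes 17 were tested and none passed. Without overlap 6 were higher and none lower, beside 10.3% and 6.76% of all protein-coding genes. The median difference was 0.17.

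Reduction by these systems draws on NADPH. G6pdx, the entry enzyme of the pentose phosphate pathway, read 6.95, 6.70 and 6.45 in WT control and 14.6, 13.1 and 14.7 in KO control (0.97 ± 0.22, limma adjusted p = 0.263). The groups were tight and apart. Tkt, a transketolase of the same pathway, differed by 0.53 ± 0.19 (limma adjusted p = 0.325). Of 12 NADPH-making enzymes 11 were tested and none passed. Among them 4 were higher and none lower without overlap, beside 10.3% and 6.76% of all protein-coding genes. The median difference was 0.27.

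Among genes of heme and iron, the ferritin chains stood apart and heme oxygenase did not. Ftl1, the light chain, read 78.5, 64.1 and 79.1 in WT control and 182, 138 and 152 in KO control (1.07 ± 0.16, limma adjusted p = 0.0890). Fth1, the heavy chain, read 217, 180 and 296 in WT control and 394, 318 and 374 in KO control (0.67 ± 0.20, limma adjusted p = 0.281). Both ferritin chains were higher in every KO library than in any WT library. Hmox1, the inducible heme oxygenase, read 3.39, 2.17 and 3.41 in WT control and 3.32, 3.82 and 3.74 in KO control, with overlapping groups (0.23 ± 0.26, limma adjusted p = 0.770). Of 13 listed genes 12 were tested and none passed. Among them 2 were higher and none lower without overlap, beside 10.3% and 6.76% of all protein-coding genes. Their median of 0.05 lay at that of all protein-coding genes.

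Over the 5 lists of NRF2 targets together, 69 of 81 genes were tested. Of these 3 rose and none fell, and 24 were higher and 1 lower without overlap, beside 10.3% and 6.76% of all protein-coding genes. The median difference was 0.27, beside 0.06 for all protein-coding genes. It was 0.54 beside 0.36 for the values as deposited, 0.21 beside 0.04 after quantile normalization and 0.35 beside 0.14 with a common sum. Of the 18 genes of the KEAP1-NRF2 switch itself, which regulate the factor, none passed and 4 lay apart. Keap1 was lower, and Bach1 (0.57 ± 0.16, limma adjusted p = 0.275) and Bach2 (0.68 ± 0.26, limma adjusted p = 0.344), repressors that compete at the same elements, were higher. The fourth was Sqstm1, the autophagy receptor that binds KEAP1 (0.34 ± 0.12, limma adjusted p = 0.331).

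**Figure D2:**
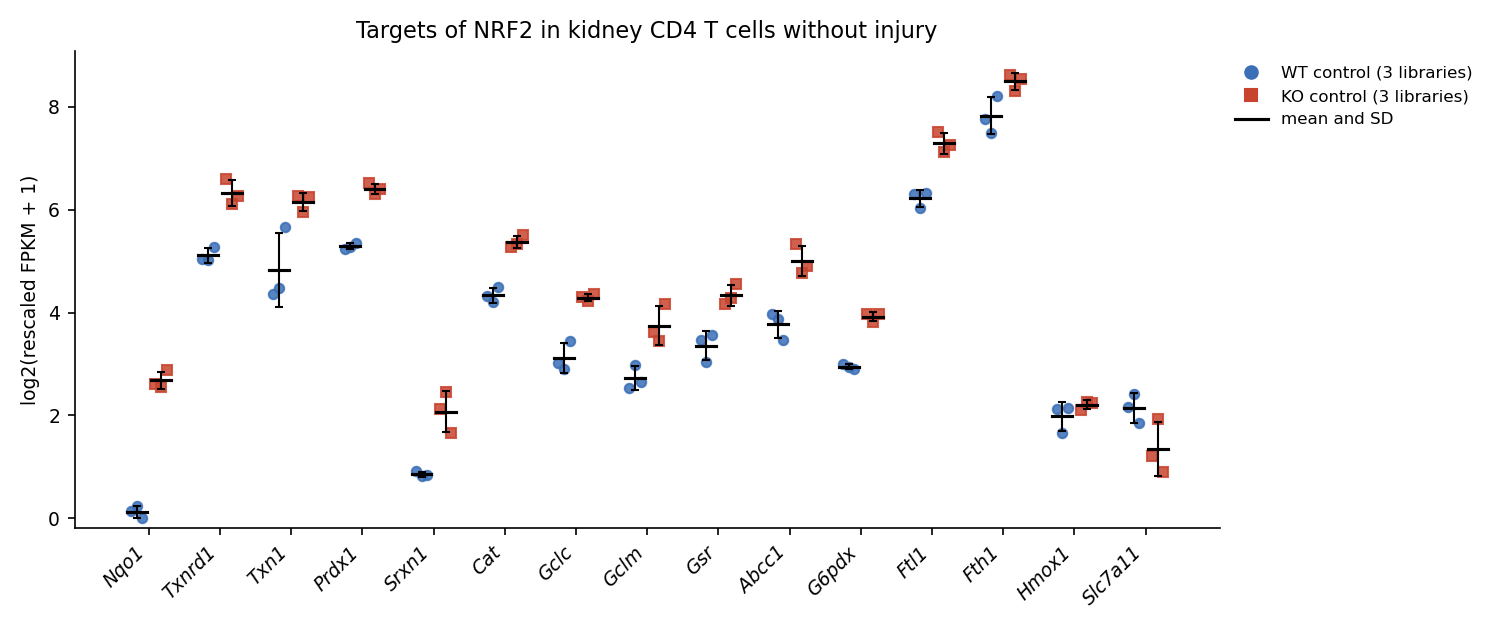
Level of 15 NRF2 targets (log2(rescaled FPKM + 1), vertical axis) in each of the 3 WT control libraries (circles) and 3 KO control libraries (squares), with the mean and SD of each group in black. Nqo1, Txnrd1 and Prdx1 passed the test, the groups of Hmox1 and Slc7a11 overlap, and those of the other genes do not.

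Fgl2 (chr5:21372642-21378374, plus strand) encodes fibrinogen-like protein 2, a secreted effector of regulatory T cells and other leukocytes. It read 60.8, 63.4 and 71.2 rescaled FPKM in WT control and 22.8, 17.7 and 16.1 in KO control. The WT mean was 3.46-fold higher, and the highest KO library was below the lowest WT library. Fgl2 fell by 1.75 on the log2 scale, with an SE of 0.21 (limma adjusted p = 0.0196). The call was lost without WT control 1, WT control 2 or KO control 3 (limma adjusted p = 0.0895, 0.113 and 0.0924). Fgl2 lies within the annotated span of Ccdc146. After IRI its difference was −0.92, and the interaction of genotype and IRI, 0.82 ± 0.30, did not pass the test (limma adjusted p = 0.906).

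Of 10 tested receptors shared with natural killer (NK) cells, 6 were lower in every KO library than in any WT library, and none passed the test. Klrc1, an inhibitory NKG2 receptor, read 14.2, 15.9 and 28.3 in WT control and 4.09, 3.22 and 1.71 in KO control (−2.34 ± 0.34, limma adjusted p = 0.0627). Klrk1, which encodes the activating receptor NKG2D, read 22.0, 21.4 and 12.7 in WT control and 9.56, 6.39 and 4.63 in KO control (−1.33 ± 0.31, limma adjusted p = 0.270). In both genes every KO library was below every WT library, and the same held for Klrc2 (−1.27 ± 0.30, limma adjusted p = 0.270) and Klre1 (−1.24 ± 0.31, limma adjusted p = 0.275). None of the 10, of 19 listed, was higher without overlap, and 6.76% of all protein-coding genes were lower in this way. The median difference was −0.64 and the highest 0.80. The median was below 0 under each scaling tried. Reads from neighbouring copies of this gene family may have been split in counting. The 5 markers kept for NK cells themselves, among them Ncr1 and Eomes, summed to 8.94 to 15.0 in WT control and 7.47 to 11.2 in KO control, so these ranges overlapped.

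Genes of gamma-delta and innate-like T cells went in both directions. Tcrg-C1, a gamma chain constant segment, read 9.15, 10.2 and 21.4 in WT control and 4.41, 5.38 and 2.72 in KO control (−1.43 ± 0.30, limma adjusted p = 0.231). Tcrg-C4 differed by −0.67 ± 0.26 (limma adjusted p = 0.373). Zbtb16, the factor PLZF of innate-like T cells, read 12.3, 14.9 and 14 in WT control and 6.70, 7.33 and 4.15 in KO control (−1.09 ± 0.28, limma adjusted p = 0.275). All 3 genes were lower in KO control without overlap. Trdc, the delta chain constant segment that defines gamma-delta cells, did not follow, with 0.862, 0.732 and 1.57 in WT control and 1.98, 1.08 and 1.89 in KO control. Of 13 listed genes 9 were tested and none passed. Among them 1 was higher and 4 lower without overlap, beside 10.3% and 6.76% of all protein-coding genes. The median difference was −0.34. The 4 gamma-delta markers with values summed to 20.7 to 48.8 in WT control and 9.78 to 16.7 in KO control. Tcrg-C1 and Tcrg-C2 made up most of each sum, so it says little beyond these gamma chain segments. The share of gamma-delta cells was not tested. The part of these cells in the lower NK receptors was not tested either.

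Regulators of type 1 helper (Th1) cells and of tissue residency were partly lower. Tbx21, which encodes the Th1 factor T-bet, read 34.0, 32.6 and 32.5 in WT control and 22.1, 22.9 and 18.7 in KO control (−0.62 ± 0.14, limma adjusted p = 0.265). Il12rb2, the signalling chain of the IL-12 receptor, read 19.1, 23.6 and 26.2 in WT control and 10.4, 10.8 and 7.07 in KO control (−1.21 ± 0.26, limma adjusted p = 0.234). Both were lower in every KO library. Il18r1, the IL-18 receptor, was higher in every KO library (0.76 ± 0.23, limma adjusted p = 0.285). Of 14 Th1 genes none passed, 2 were higher and 2 lower without overlap, beside 10.3% and 6.76% of all protein-coding genes. The median difference was −0.17, beside 0.06 for all protein-coding genes. It was 0.14 with the values as deposited, where that of all protein-coding genes was 0.36, so it lay below them in both.

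Zfp683 encodes Hobit, a repressor of exit genes in resident lymphocytes. It read 58.3, 55.3 and 51.4 in WT control and 36.3, 25.8 and 23.0 in KO control (−0.95 ± 0.29, limma adjusted p = 0.286). Itga1, the collagen-binding integrin CD49a, read 18.2, 22.9 and 17.4 in WT control and 11.9, 9.74 and 7.60 in KO control (−0.94 ± 0.20, limma adjusted p = 0.245). Xcl1, a chemokine of resident lymphocytes, differed by −0.75 ± 0.28 (limma adjusted p = 0.338). All 3 were lower in every KO library. Of 15 residency genes tested, none passed, 1 was higher and 5 were lower without overlap, beside 10.3% and 6.76% of all protein-coding genes. Their median was −0.20, beside 0.06 for all protein-coding genes, and 0.14 beside 0.36 with the values as deposited.

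Of the genes of type 17 helper (Th17) cells, 5 of the 12 tested were higher in every KO library than in any WT library, and none passed the test. Ccr6, the chemokine receptor of Th17 cells, read 2.56, 2.96 and 1.34 in WT control and 11.4, 11.1 and 9.07 in KO control (1.84 ± 0.45, limma adjusted p = 0.275). Its groups lay well apart. Il17a, the cytokine, was low in both groups, with 0.521, 0.306 and 0.535 in WT control and 1.61, 4.22 and 1.20 in KO control (1.10 ± 0.44, limma adjusted p = 0.378). Tmem176a, a membrane protein, differed by 1.36 ± 0.31 (limma adjusted p = 0.265). None of the 12, of 15 listed, was lower without overlap, and the shares over all protein-coding genes were 10.3% higher and 6.76% lower. The median difference was 0.42, beside 0.06 for all protein-coding genes, and lay above theirs under each scaling tried. Among genes of type 2 cells, 1 of 11 was higher and 3 were lower without overlap. These include Ccr4 (0.80 ± 0.30, limma adjusted p = 0.335) and the cytokine Il4 (−1.02 ± 0.39, limma adjusted p = 0.358).

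Cytotoxic genes split. Gzmb, granzyme B, read 10.6, 10.5 and 21.6 in WT control and 53.9, 51.2 and 56.5 in KO control (1.93 ± 0.40, limma adjusted p = 0.231). Gzmk, granzyme K, read 3.78, 4.05 and 2.10 in WT control and 13.0, 9.16 and 12.6 in KO control (1.57 ± 0.32, limma adjusted p = 0.220). Both granzymes were higher in every KO library. Fasl, the ligand of the death receptor FAS, read 34.4, 33.1 and 47.8 in WT control and 18.9, 25.0 and 16.8 in KO control (−0.89 ± 0.22, limma adjusted p = 0.275). Nkg7, a granule membrane protein, differed by −0.78 ± 0.25 (limma adjusted p = 0.292), and both were lower in every KO library. Of 14 genes tested, none passed, 4 were higher and 5 lower without overlap, beside 10.3% and 6.76% of all protein-coding genes. The median was −0.05, beside 0.06 for all protein-coding genes. It was 0.25 beside 0.36 with the values as deposited, and 0.02 beside 0.14 with a common sum.

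Cd4, the co-receptor on which the cells were sorted, read 93.8, 103 and 109 in WT control and 286, 182 and 225 in KO control (1.15 ± 0.20, limma adjusted p = 0.141). All KO libraries were above all WT libraries, with KO control 2 the lowest of them. Cd3e, a chain of the receptor complex common to all T cells, did not differ in that way, with 233, 218 and 211 in WT control and 186, 227 and 265 in KO control. The adaptor Lat (0.37 ± 0.12, limma adjusted p = 0.309), the inhibitory receptor Cd5 (0.61 ± 0.19, limma adjusted p = 0.291) and the receptor-associated Trat1 (0.66 ± 0.18, limma adjusted p = 0.275) were higher without overlap. Of 24 genes of the T cell receptor and CD4 identity, none passed, 7 were higher and none lower without overlap, beside 10.3% and 6.76% of all protein-coding genes, or 16.7% and 2.24% of those at a mean of at least 30 FPKM. The median difference was 0.21. Cd8a read 3.61, 3.87 and 4.84 in WT control and 5.71, 4.73 and 3.38 in KO control. Cd8b1, the other chain of the CD8 co-receptor, was higher in every KO library, at 7.23 to 8.83 against 3.50 to 5.11 (0.77 ± 0.17, limma adjusted p = 0.263). Both stayed far below Cd4.

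Of 18 genes of naive and recirculating T cells, 10 were higher in every KO library than in any WT library, and none passed the test. S1pr1, the receptor that leads lymphocytes out of tissue, read 67.2, 64.8 and 59.1 in WT control and 87.8, 104 and 128 in KO control (0.72 ± 0.18, limma adjusted p = 0.275). Ccr7, the lymph node homing receptor, read 49.6, 39.0 and 48.9 in WT control and 67.7, 62.8 and 94.2 in KO control (0.68 ± 0.18, limma adjusted p = 0.275). Tcf7, the factor TCF1, read 193, 184 and 194 in WT control and 247, 267 and 425 in KO control (0.67 ± 0.20, limma adjusted p = 0.281). KO control 3 was the highest library for all 3 genes, and no KO library overlapped WT. Nsg2 differed by 0.75 ± 0.21 (limma adjusted p = 0.275). No gene of the list was lower without overlap, and the shares over all protein-coding genes were 10.3% higher and 6.76% lower. Among genes at a mean of at least 30 FPKM, 16.7% were higher and 2.24% lower without overlap, with a median of 0.14. The median difference of the list was 0.31, beside 0.06 for all protein-coding genes, and lay above theirs under each scaling tried. It was 0.16 beside 0.04 after quantile normalization.

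Activation and costimulation genes showed no common direction. Of 21 tested none passed, 4 were higher and 4 lower without overlap. Over all protein-coding genes the shares without overlap were 10.3% higher and 6.76% lower. Tnfrsf4, the costimulatory receptor OX40, was higher (0.58 ± 0.19, limma adjusted p = 0.292), as were Slamf6 (0.65 ± 0.22, limma adjusted p = 0.316) and the CD30 ligand Tnfsf8 (0.59 ± 0.17, limma adjusted p = 0.281). Il2rb, a chain of the IL-2 and IL-15 receptors, was lower (−0.55 ± 0.17, limma adjusted p = 0.291). Of 13 inhibitory receptor genes none passed, with 3 higher and 3 lower without overlap. Ctla4 was on the higher side (0.48 ± 0.19, limma adjusted p = 0.376). Cd160 (−1.28 ± 0.34, limma adjusted p = 0.275) and Entpd1, the ectonucleotidase CD39 (−0.48 ± 0.19, limma adjusted p = 0.396), were on the lower side.

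Of 17 regulatory T cell genes none passed, 4 were higher and 1 lower without overlap, and the median difference was 0.28. The shares without overlap over all protein-coding genes were 10.3% higher and 6.76% lower. Foxp3, the lineage factor of these cells, named here after its values were seen, read 7.54, 9.61 and 8.57 in WT control and 9.49, 13.4 and 11.5 in KO control, and its groups overlapped. The actin-capping protein Capg was among those without overlap (0.68 ± 0.27, limma adjusted p = 0.376). Of 17 SOCS and cytokine receptor genes none passed, 6 were higher and 2 lower without overlap, with a median difference of 0.36. Tgfbr2, the TGF-beta receptor, read 53.6, 50.3 and 52.2 in WT control and 72.6, 67.1 and 83.7 in KO control (0.50 ± 0.12, limma adjusted p = 0.275). The IL-6 receptor chains Il6ra (0.56 ± 0.21, limma adjusted p = 0.358) and Il6st (0.55 ± 0.18, limma adjusted p = 0.295) were also higher in every KO library, as was the interferon-gamma receptor chain Ifngr2 (0.62 ± 0.23, limma adjusted p = 0.345).

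**Figure D3:**
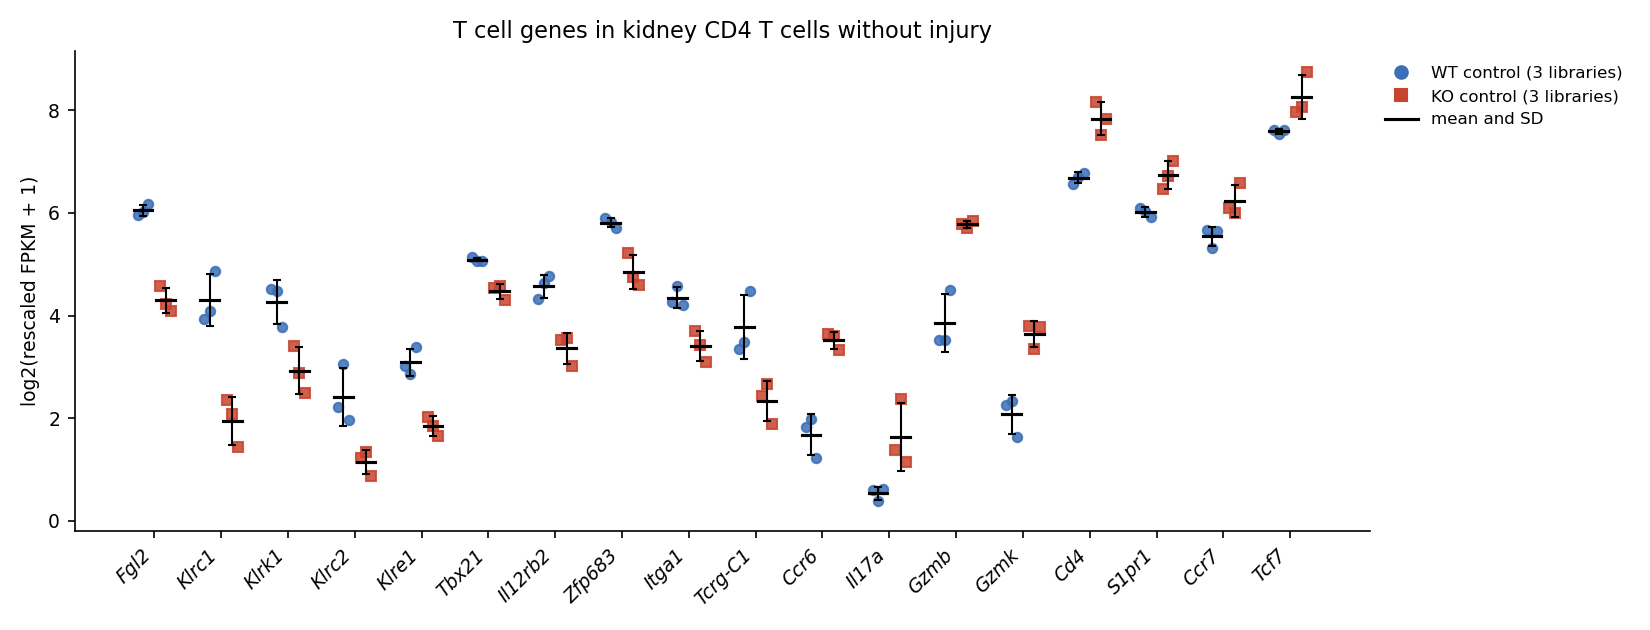
Level of 18 T cell genes (log2(rescaled FPKM + 1), vertical axis) in the 3 WT control libraries (circles) and 3 KO control libraries (squares), with the mean and SD of each group in black. Every KO control library lay below WT control for the genes from Fgl2 to Tcrg-C1 and above it for those from Ccr6 to Tcf7, and of all these Fgl2 alone passed the test.

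No gene of the housekeeping pathways passed the test. Of 33 proteasome subunits, which degrade ubiquitin-tagged proteins and include known NRF2 targets, 8 were higher and none lower without overlap, beside 10.3% and 6.76% of all protein-coding genes. Their median difference was 0.28, beside 0.06, and 31 were above 0. Genes at a mean of at least 30 FPKM were higher in 16.7% and lower in 2.24% without overlap, with a median of 0.14. The largest of these differences were those of Psmb3 (0.62 ± 0.17, limma adjusted p = 0.275) and Psma1 (0.50 ± 0.17, limma adjusted p = 0.312). Of 43 respiratory chain subunits none passed, 4 were higher and none lower without overlap, and 40 had a difference above 0, beside 7059 of all 12065 protein-coding genes, with a median of 0.19. Of 18 glycolysis genes none passed, 2 were higher and 1 lower without overlap. Gpi1, the glucose phosphate isomerase, was the clearest of these (0.63 ± 0.12, limma adjusted p = 0.220), at 59.2 to 77.8 in KO control against 43.1 to 44.7 in WT control.

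No gene of the stress and signalling lists passed the test, and the shares without overlap over all protein-coding genes were 10.3% higher and 6.76% lower. Of 16 genes of the unfolded protein response none passed and 3 were higher without overlap, among them the chaperone Pdia4 (0.49 ± 0.16, limma adjusted p = 0.299). Of 18 ATF4 target and amino acid genes and 13 heat shock genes, 1 each was higher without overlap and none passed. Of 15 p53 targets and BCL2 family genes none passed, with 3 higher and 1 lower without overlap. The pro-death members Bax (0.51 ± 0.19, limma adjusted p = 0.335) and Bbc3 (0.56 ± 0.18, limma adjusted p = 0.295) were higher and Bcl2a1b (−0.65 ± 0.21, limma adjusted p = 0.292) was lower. None of 19 AP-1 and immediate early genes or of 25 cell cycle genes lay apart in either direction. Of 15 NF-kB genes 2, and of 24 interferon-stimulated genes 4, were higher without overlap, and none passed.

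**Figure D4:**
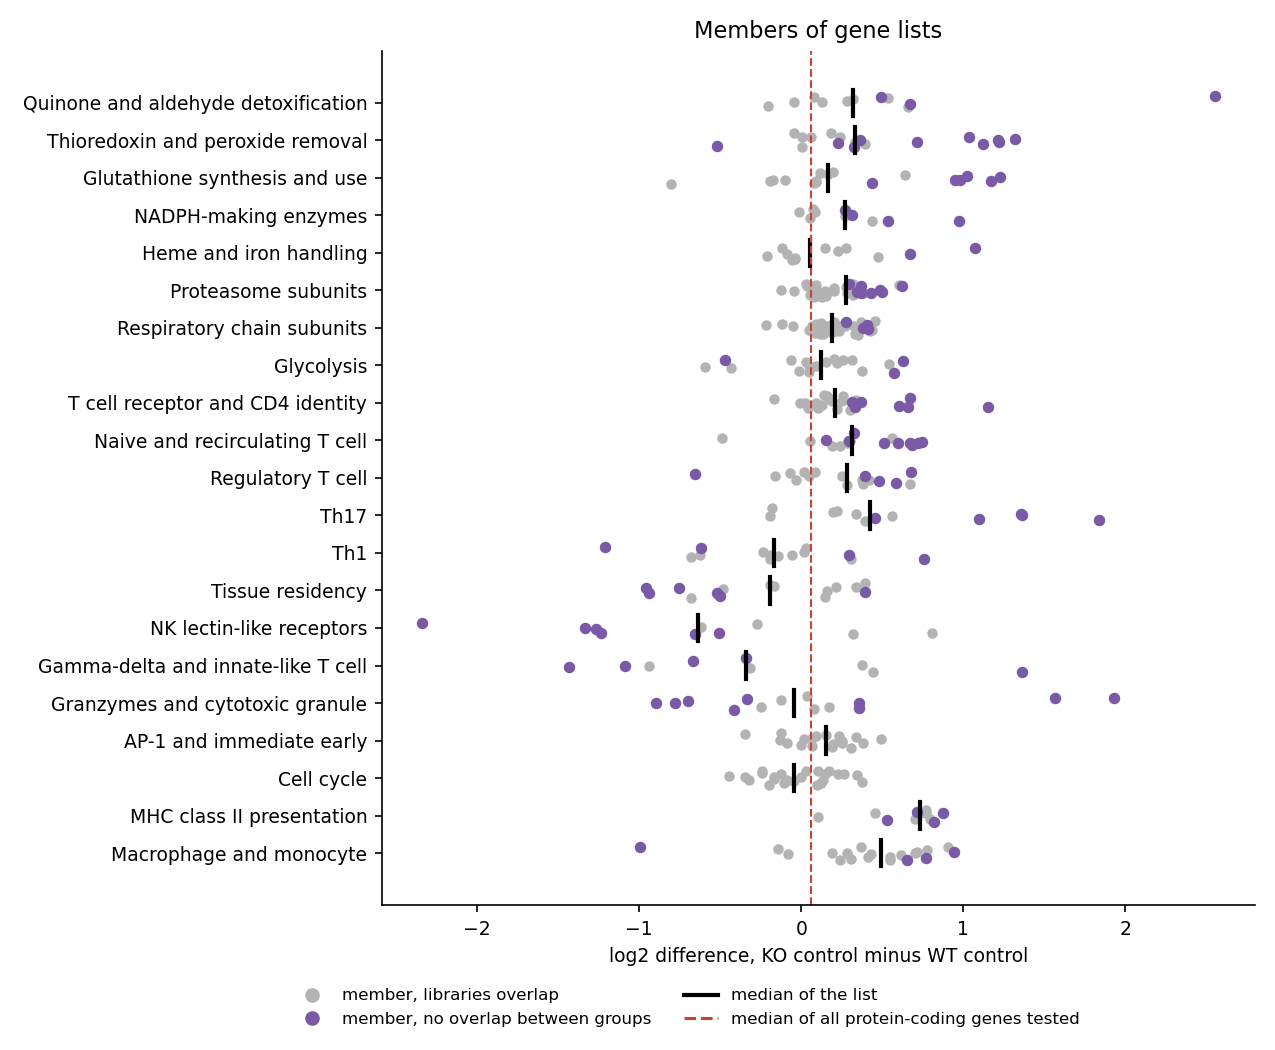
Differences between KO control and WT control (horizontal axis, log2) of the tested members of 21 gene lists, 1 point per gene, with members whose groups did not overlap in purple. Black bars are the median of each list and the dashed line is the median of all protein-coding genes tested, 0.06; the median lies at −0.64 for NK lectin-like receptors, 0.42 for Th17 and 0.73 for MHC class II presentation.

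Transcripts of other cell types also differed. Jchain, the joining chain of secreted antibodies made by plasma cells, read 0.0348, 0.85 and 1.4 in WT control and 125, 23.6 and 28.2 in KO control (4.75 ± 1.00, limma adjusted p = 0.231). KO control 1 was the highest by far, and no KO library overlapped WT. The 6 B and plasma cell markers together summed to 10.9 to 50.3 in WT control and 44.0 to 185 in KO control.

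MHC class II genes, which present antigen in B cells, macrophages and dendritic cells, had a median difference of 0.73 over 11 genes. None passed, 4 were higher and none lower without overlap, where the shares over all protein-coding genes were 10.3% and 6.76%. H2-Eb1 read 102, 71.9 and 55.8 in WT control and 189, 127 and 106 in KO control (0.87 ± 0.30, limma adjusted p = 0.317), and H2-Aa followed (0.82 ± 0.30, limma adjusted p = 0.330). C1qb, a complement gene of macrophages, read 26.1, 15.1 and 12.4 in WT control and 44.1, 29.2 and 29.2 in KO control (0.94 ± 0.28, limma adjusted p = 0.281). All 3 genes were highest in KO control 1 and, within WT, in WT control 1. Of 20 macrophage and monocyte genes none passed, with 3 higher and 1 lower without overlap and a median of 0.49; the lower one was Ly6c2 (−0.99 ± 0.30, limma adjusted p = 0.286). The 7 macrophage markers summed to 79.6 to 170 in WT control and 144 to 236 in KO control, and the 4 dendritic cell markers to 5.01 to 6.80 and 5.97 to 9.63. The part of these cells in the differences of T cell genes was not tested.

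Neutrophil, fibroblast and tubule transcripts were low or uneven. The 5 neutrophil markers summed to 1.49 to 6.92 in WT control and 0.908 to 2.08 in KO control, and S100a8, Ly6g and Retnlg were each listed at 0 in at least 1 control library. Ly6g was the marker that lay apart (−1.60 ± 0.50, limma adjusted p = 0.291). The 4 fibroblast markers summed to 7.25 to 13.0 in WT control and 1.32 to 4.13 in KO control. The 5 proximal tubule markers ranged from 4.78 to 60.7 in WT control and from 0.214 to 148 in KO control, with KO control 2 the highest. The 4 markers of the loop and distal tubule ranged from 6.83 to 81.2 in WT control and from 0.341 to 33.3 in KO control. No tubule gene on the lists lay apart between the genotypes.

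In some genes with large differences below 0, KO control 2 stood apart from the other KO libraries. Zfp979, a zinc finger gene, read 13.8, 12.8 and 16.4 in WT control and 0.0101, 10.7 and 0.856 in KO control (−2.45 ± 0.70, limma adjusted p = 0.275). Mid1, a ubiquitin ligase of microtubules, read 82.6, 65.7 and 48.7 in WT control and 6.52, 45.7 and 4.86 in KO control (−2.36 ± 0.63, limma adjusted p = 0.275). In both, KO control 2 lay just below the lowest WT library and the other KO libraries far below it. The predicted gene Gm10801, chosen after its values were seen, had the same shape at a much higher level, with 29154, 31093 and 26056 in WT control and 7.76, 21987 and 854 in KO control. Without KO control 2 both passed the test, at −3.48 for Zfp979 (limma adjusted p = 0.00155) and −3.29 for Mid1 (limma adjusted p = 0.00103).

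Other genes lay apart in all libraries alike. Emb, a chaperone of monocarboxylate transporters, read 82.9, 78.5 and 76.2 in WT control and 140, 150 and 132 in KO control (0.82 ± 0.12, limma adjusted p = 0.0627). Atp8a2, a phospholipid flippase, read 8.22, 8.48 and 9.27 in WT control and 3.58, 2.31 and 1.94 in KO control (−1.44 ± 0.23, limma adjusted p = 0.120). Rgs10, a brake on G protein signalling, read 27.2, 21.1 and 23.0 in WT control and 55.0, 39.5 and 51.0 in KO control (0.99 ± 0.17, limma adjusted p = 0.141). In each, every KO library was on the same side of every WT library. Ldlrad4, an inhibitor of TGF-beta signalling, was higher in the same way (0.88 ± 0.14, limma adjusted p = 0.129). Slamf7, a receptor of cytotoxic lymphocytes (−0.87 ± 0.16, limma adjusted p = 0.199), and Sytl2, a vesicle docking protein of lymphocytes (−0.75 ± 0.14, limma adjusted p = 0.199), were lower. Npr2, a natriuretic peptide receptor, was lower at a low level, with 1.97, 7.41 and 7.02 in WT control and 0.169, 0.5 and 0.0241 in KO control (−2.27 ± 0.40, limma adjusted p = 0.156).

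After IRI the genotypes were compared in 6 other libraries, so no library is shared with the controls. The filter and the scaling used all 12 libraries, and genotype and source of the mice cannot be told apart here either. Of the 1237 protein-coding genes higher without overlap in KO control, 1019 (82.4%) had a difference above 0 after IRI, beside 61.8% of all protein-coding genes. In 397 of them (32.1%) the IRI libraries did not overlap either, beside 16.5% of all protein-coding genes. Of the 815 genes lower without overlap, 614 (75.3%) had a difference below 0, beside 38.2% of all protein-coding genes, and 292 (35.8%) did not overlap after IRI, beside 8.74% of all protein-coding genes. Chemosensory receptors made up 58 of these 292, and 168 of the 320 tested were lower without overlap after IRI. Across the 12065 genes the correlation of the 2 differences was 0.466 (Pearson) and 0.383 (Spearman). For the 5651 genes at a mean of at least 10 FPKM it was 0.387 (Pearson) and 0.247 (Spearman). Both are descriptions over genes, which are not independent. The shares over all protein-coding genes given here are not matched for level, and which genes lay apart depended on level. In the test of the genotype by IRI interaction no protein-coding gene passed (0%) and 1 of all genes did (0.00518%), the small nucleolar RNA gene Gm25744; 567 protein-coding genes had an unadjusted p under 0.05.

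After IRI the differences of Nqo1, Prdx1 and Txnrd1 were 2.05, 1.06 and 1.32, and none of the 3 passed the test of the interaction (limma adjusted p = 0.906, 0.979 and 0.959). Of the 24 NRF2 list members that were higher without overlap in controls, 17 were so after IRI too. The NK lectin-like receptors had a median of −1.24 after IRI, with Klrc1 at −2.93, and 4 of the 6 lower members were lower without overlap there as well. Cd4 (1.45), Gzmk (2.10), Gzmb (1.79) and Ccr6 (1.74) were again above 0. Other genes had smaller values after IRI. Emb was 277, 261 and 276 in WT IRI and 251, 277 and 300 in KO IRI, a difference of 0.02. Its interaction of −0.80 ± 0.17 did not pass either (limma adjusted p = 0.906). Tbx21 was at −0.07 and MHC class II presentation at a median of 0.11. Jchain was at 0.95, from 0.0199 to 3.54 in WT IRI and 0.209 to 17.4 in KO IRI.

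**Figure D5:**
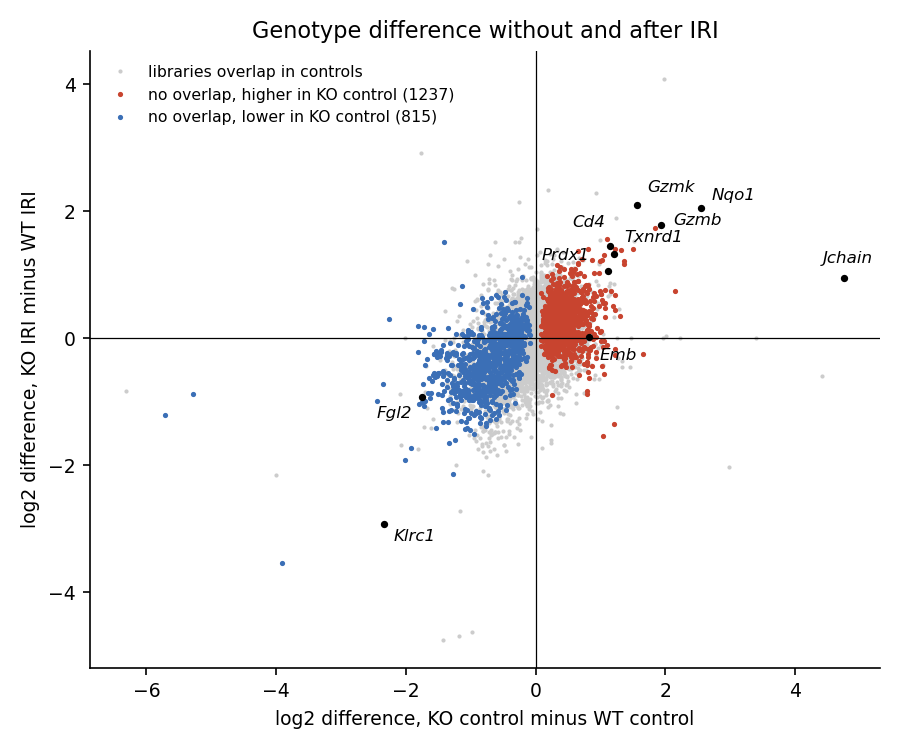
Genotype difference after IRI (KO IRI minus WT IRI, vertical axis, log2) against that without IRI (KO control minus WT control, horizontal axis, log2) for 12065 protein-coding genes, 1 point per gene. Genes without overlap in the controls are red (1237 higher) or blue (815 lower), and most red points lie above and most blue points below the horizontal line at 0.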

How the data were processed

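The authors deposited 1 table of FPKM values with a column per library. Per the submitters' processing notes, the tools include Cufflinks 2.2.1, TopHat2 2.1.0, bcl2fastq 2.17.1.14 and Partek 7.0, with the GRCm38 build. The annotation release, the strand setting of counting and any scaling between libraries are not given in the sources used here. Per the labels' protocols, RNA came from sorted kidney CD4 T cells, 1 ng per library, sequenced as paired reads of 36 bases. Per the labels the reads per sample were 60000000, but the depth each library reached cannot be read from FPKM, so no counting intervals are given. All 12 labels carry the same date, so no date separates the libraries.

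Genes were matched by identifier to GENCODE M21 (52485 of 52632). Genes whose mean FPKM reached 1 were kept. Median-ratio factors, taken over the 16018 genes above 0 everywhere, rescaled the libraries. limma 3.58.1 in R 4.3.3 (lmFit, eBayes with a trend) was fitted to log2(rescaled FPKM + 1) of all 12 libraries with 4 group means and 8 residual degrees of freedom, two-sided, with Benjamini-Hochberg adjustment over 19288 genes and a threshold of 0.05. The fit was tested on simulated data. Tables and figures used Python 3.11.15, pandas 2.3.3 and matplotlib 3.10.9.

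The comparison, the 45 gene lists and their members were chosen with earlier results of these data known. Genes are named by a rule: every protein-coding gene past the test; in each direction the 10 of smallest p; the 5 with the largest difference in each direction among those without overlap and with a mean of at least 5 in the higher group; up to 4 members per list with the smallest p; and KEAP1-NRF2 genes, Cd4 and leading markers of other cells. Predicted genes were left out of the parts of the rule on p and on size. Alternatives changed the scaling, the pseudocount, the filter, the genes or libraries fitted, the trend, library weights and the replicate block, and left out each library in turn. Some results are not reported here.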

Additional observations from a re-analysis of the deposited data

Results flagged for a closer look

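In 1 gene the genotype difference without IRI differed from that after IRI by the test of the interaction. Gm25744, a small nucleolar RNA gene, was listed at 0 in all 3 WT control libraries and read 557, 109 and 160 rescaled FPKM in KO control. After IRI it was listed at 0 in 5 of the 6 libraries and near 0 in the sixth. The interaction was −7.744 on the log2 scale (limma adjusted p = 0.00456). The spread behind that p-value is pooled over all groups, and outside KO control this gene hardly varied. The p-value therefore rests on a smaller spread than that seen within KO control. When only the 6 control libraries were fitted, its difference between KO control and WT control was 7.78 ± 0.62. In that fit Gm25744 did not pass the test (limma adjusted p = 0.0802). Small nucleolar RNA was also most abundant in KO control 1, the library with the highest value of this gene, and the part of that library's makeup in the result was not tested.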

How the results depend on the processing

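Over all genes, 6 rose and 1 fell in KO control, and 1 passed the interaction. The number that rose was 10 with a pseudocount of 0.1, 16 with library weights and 12 with KO control 1 and the third library of both WT groups left out. The number that fell was 0 with the values as deposited, a common sum, only the 6 control libraries or no trend, 2 at a mean of at least 5, 4 with protein-coding genes only, 3 with library weights and 20 without those 3 libraries. The interaction gave 0 with a pseudocount of 5 or protein-coding genes only, 2 with no filter and 27 without those 3 libraries. Among protein-coding genes, 3 rose and 1 fell. The number that rose was 1 with a common sum or only the 6 control libraries, 9 with protein-coding genes only and 10 with library weights. The number that fell was 0 with the values as deposited, a common sum, no filter, only the 6 control libraries or no trend, 2 at a mean of at least 5 or with library weights and 4 with protein-coding genes only. Leaving out 1 library at a time gave 5 to 57 and 0 to 447 genes over all, 2 to 26 and 0 to 137 protein-coding genes (rising and falling), and 1 to 12 for the interaction. The highest came without KO control 2, and for the interaction without WT control 3. The cause of these shifts was not tested. Nqo1 passed in all 24 alternatives that gave it a value, Prdx1 in 22 of 25, and Txnrd1 and Fgl2 in 16 of 25 each. Of 105 genes whose differences were followed through 2605 alternative values, none changed sign, while of all 216 genes the naming rule gave, 39 did. Of 1149 list medians under alternatives, 45 changed sign, in 18 lists, while the median of all protein-coding genes itself moved from 0.06 to 0.36 with the values as deposited. With the replicate number as a block, 5 genes rose, 1 fell and 1 passed the interaction, and among protein-coding genes 2 rose (Txnrd1 was at a limma adjusted p of 0.067) and 1 fell. The labels do not say whether the numbers pair the libraries. Same-numbered control libraries deviated together with correlations of 0.00193, 0.0715 and 0.0978. WT control 2 and 3 correlated best with the KO library of their own number, and WT control 1 did not. With 3 libraries a group these values cannot decide whether libraries were paired. Limits are 3 libraries a group from mice of 2 sources, a depth per library that FPKM does not give, and single libraries that decide counts.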

Other observations

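Homing receptors and integrins, which steer T cells into tissues, had a median difference of 0.24 over 18 genes, beside 0.06 for all protein-coding genes. None passed the test, 4 were higher in KO control without overlap and 1 was lower. Over all protein-coding genes these shares were 10.3% and 6.76%. The higher side held Ccr6 and Ccr4, which the Th17 and Th2 lists also hold. Of 11 follicular helper genes tested none passed, 1 was higher and 1 lower without overlap, and the median was 0.22. Of 8 genes of CD8 T cells none passed, with 1 higher and 1 lower without overlap. Their median was −0.14, and 0.16 with the values as deposited, where that of all protein-coding genes was 0.36.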
